A study of Mus musculus with 13 samples.

Results

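A set of 10 genes of meiotic prophase was followed by name through the RNA-seq of mouse ES cells that lack the maintenance DNA methyltransferase DNMT1. The genes were Stag3, Smc1b, Rec8, Sycp3, Hormad1, Sycp1, Syce1, Dmc1, Spo11 and Tex101, taken by symbol with earlier results of these data known, so the number that rose is a description of these genes. Of these 10 genes, 9 are in the replicate tables of 26797 genes, 8 of them were among the 17297 genes tested, and all 10 are in a joint count table of 49671 genes. Sycp3 was not analysed here in the replicates.

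The study asked how DNA methylation represses retrotransposon promoters and whether protein O-GlcNAcylation takes part in that repression. PolyA RNA was sequenced from 3 replicates of WT ES cells, the AinV15 line, and from 3 replicates of Dnmt1-/- ES cells, which the labels describe as homozygous for the C allele, a null allele of Dnmt1. Neither was treated. WT cells with dCas9-OGA or dCas9-OGA-D242A gave 1 library each. The joint count table holds these together with 1 column named for WT and 1 for Dnmt1-/- cells, which the labels tie to no sample and which are called single libraries below. For both dCas9-OGA forms, AinV15 cells had received by Cre/lox exchange a doxycycline-inducible cassette with 4 guide RNAs against the U3 region of IAP retrotransposons, and G418 selection had followed. Expression was induced with doxycycline before harvest, a treatment that the WT and Dnmt1-/- cells did not receive. dCas9-OGA joins a cleavage-dead Cas9 to a bacterial O-GlcNAc hydrolase, and the D242A form of that hydrolase is inactive. All cells grew on gelatin with serum and leukemia inhibitory factor. The WT and Dnmt1-/- cells carry different line names, so genotype and line cannot be told apart, and nothing says whether replicates came from separate cultures.

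Meiotic chromosomes fold into loops anchored on an axis. That axis is built on cohesin with the meiotic subunits REC8, SMC1B and STAG3, together with SYCP3 and the HORMA domain protein HORMAD1. The synaptonemal complex then joins homologous axes through transverse filaments of SYCP1 and a central element that contains SYCE1. SPO11 makes the double-strand breaks of meiotic recombination and the recombinase DMC1 repairs them by strand exchange with the homologue. TEX101 is a GPI-anchored protein of the germ cell surface and is no part of the axis. Somatic cells and ES cells keep many genes of this kind low, with CG-dense promoters that carry DNA methylation, and with the PRC1.6 Polycomb complex, whose subunits E2F6 and MGA with MAX bind E2F sites and E-boxes.

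RefSeq promoters, from 250 bases before to 50 bases after the transcript start on GRCm38.p6, matched 9 of the 10 genes. Spo11 had no entry. The promoters held between 14 CG dinucleotides in Syce1 and 30 in Stag3, and the median of all 32544 promoters was 7. Of all promoters, 63.5% held fewer than Syce1 and 88.2% fewer than Stag3. The promoters of cohesin genes of dividing cells, where an entry was found, held between 23 (Smc1a) and 55 (Pds5a). An E-box, CACGTG, which reads alike on both strands, was in 4 of the 9 promoters (Stag3, Sycp3, Hormad1 and Sycp1) and in 7.17% of all promoters. The E2F6 site searched for, GCGGGAA or its reverse complement TTCCCGC, was in 4 of the 9 (Stag3, Smc1b, Sycp3 and Hormad1) and in 4.63% of all. Both were in 3 of the 9 (Stag3, Sycp3 and Hormad1) and in 0.461% of all. The motifs did not overlap each other in these promoters. Among cohesin genes of dividing cells, the E2F6 site was also in the promoters of Smc1a, Stag1 and Pds5a. It was not in those of Smc3, Wapl and Pds5b, and no E-box was in any of them. Each motif holds a CG, and the shares over all promoters were not matched for CG content. Neither motif was found in the windows of Rec8, Syce1, Dmc1 and Tex101, and DNA methylation and factor binding at these promoters were not measured in the files used here.

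The stretch from 200 bases before to 10 bases after the start is printed for 6 genes on the coding strand, with E-boxes and E2F6 sites in capitals. They stand for the promoters with a motif (Smc1b, Hormad1, Sycp3 and Sycp1), for 1 that rose in Dnmt1-/- cells without either (Dmc1), and for the only tested gene of the set that fell (Syce1).
Smc1b, chr15:85131948-85132157, minus strand: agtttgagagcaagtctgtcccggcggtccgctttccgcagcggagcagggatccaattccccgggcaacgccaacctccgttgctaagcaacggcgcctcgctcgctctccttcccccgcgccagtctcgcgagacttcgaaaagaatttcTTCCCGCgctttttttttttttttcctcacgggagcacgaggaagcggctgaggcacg
Hormad1, chr3:95559477-95559686, plus strand: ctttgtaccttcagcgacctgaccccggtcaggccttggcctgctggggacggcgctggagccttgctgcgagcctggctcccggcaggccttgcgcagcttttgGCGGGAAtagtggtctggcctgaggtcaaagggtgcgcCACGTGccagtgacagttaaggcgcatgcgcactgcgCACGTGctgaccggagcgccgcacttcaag
Sycp3, chr10:88459387-88459596, plus strand: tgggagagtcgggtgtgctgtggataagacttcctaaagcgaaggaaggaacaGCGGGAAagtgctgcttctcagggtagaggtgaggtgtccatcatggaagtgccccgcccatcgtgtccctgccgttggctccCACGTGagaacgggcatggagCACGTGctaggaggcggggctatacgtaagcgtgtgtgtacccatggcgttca
Sycp1, chr3:102936091-102936300, minus strand: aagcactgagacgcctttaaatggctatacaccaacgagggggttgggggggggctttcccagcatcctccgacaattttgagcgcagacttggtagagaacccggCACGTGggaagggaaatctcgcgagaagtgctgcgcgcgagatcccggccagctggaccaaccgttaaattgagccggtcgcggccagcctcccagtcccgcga
Dmc1, chr15:79605100-79605309, minus strand: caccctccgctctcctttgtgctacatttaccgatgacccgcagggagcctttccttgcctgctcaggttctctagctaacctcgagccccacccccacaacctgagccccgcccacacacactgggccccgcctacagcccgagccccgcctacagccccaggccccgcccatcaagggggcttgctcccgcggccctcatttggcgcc
Syce1, chr7:140787845-140788054, minus strand: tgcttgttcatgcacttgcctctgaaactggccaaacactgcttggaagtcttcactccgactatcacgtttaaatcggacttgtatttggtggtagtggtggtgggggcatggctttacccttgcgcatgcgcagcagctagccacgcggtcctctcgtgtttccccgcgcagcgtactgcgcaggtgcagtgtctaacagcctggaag
Hormad1 and Sycp3 show 2 E-boxes and 1 E2F6 site each in this stretch, Sycp1 has 1 E-box, and Smc1b has 1 E2F6 site on the opposite strand. Stag3 had 1 E-box and 1 E2F6 site, the latter across its RefSeq start, and is described by these features only, since another annotated transcript of Stag3 begins upstream of that start. Annotated transcripts also begin 129 bases upstream of the RefSeq start for Rec8 and 4625 bases upstream for Tex101, and those starts were not searched.

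**Figure D1:**
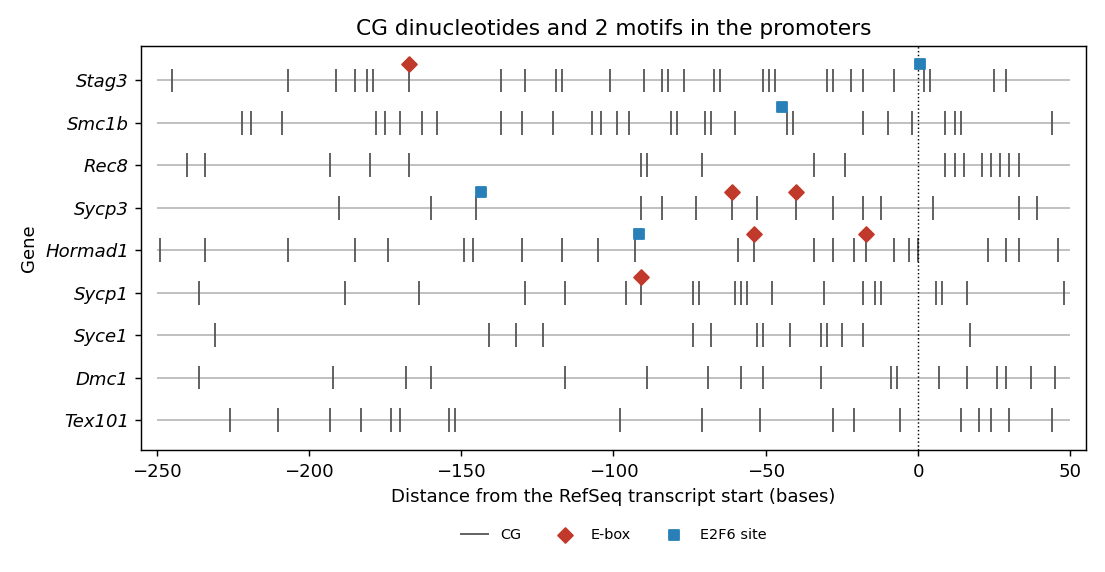
CG dinucleotides (bars), E-boxes (diamonds) and E2F6 sites (squares) are placed by their distance in bases from the RefSeq transcript start, 1 line for each of the 9 genes with a promoter entry. CG dinucleotides lie along all 9 promoters, 14 in Syce1 and 30 in Stag3, and the 2 motifs lie in the 5 promoters of Stag3, Smc1b, Sycp3, Hormad1 and Sycp1.

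Of the 8 tested genes, 7 rose in Dnmt1-/- cells, where 35.8% of the 17297 genes tested rose, at an adjusted p under 0.05 in limma. The remaining gene, Syce1, fell, as 35.4% of the genes tested did. Sycp1, Smc1b, Tex101, Stag3 and Dmc1 rose at least 2-fold, 5 of 8, where 3.67% of the genes tested did so. None fell 2-fold, which 9.41% of the genes tested did. All 3 Dnmt1-/- libraries lay above all 3 WT libraries for 7 of the 8 genes (37.1% of genes tested) and below them for 1 (36.2%). The median log2 fold change of the 8 genes was 1.67, and that of all genes tested was 0.0069. Levels are the deposited signal, in which each gene's reads are scaled by 1 factor per library. The signal of all genes came to 959084 to 964265 in WT and 1017432 to 1036637 in Dnmt1-/- libraries, so it is close to counts per 1e6 reads. These sums differ by genotype, so the factor was not the total of these reads alone. Fold changes are on the log2(signal + 0.5) scale, which understates the change of low genes, and the reads on genes behind them numbered 26846275 to 37112247 per library.

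Dnmt1, the targeted gene, had a signal of 308, 352 and 347 in the WT libraries and 73.6, 75.4 and 77.6 in the Dnmt1-/- libraries, a log2 fold change of −2.14 ± 0.05 (SE, adjusted p = 1.1e-20 in limma). The lines were checked for cell type. ES cell markers were high in both, with a summed signal of 3879 to 4028 in WT and 3888 to 4030 in Dnmt1-/- over 7 markers, of which 2 rose (Tdgf1, 0.31, and Dppa4, 0.19) and 3 fell, Esrrb by 0.45, beside 35.8% and 35.4% of all genes tested. With libraries scaled to the total of recovered reads, Dppa4 stood at 0.093 and its call was lost (adjusted p = 0.080 in limma). Of 5 spermatid markers 4 were measured and were nearly absent, at a summed signal of at most 0.258 in any library. Of the testis somatic markers, only Amh had enough reads to be tested, and its log2 difference was 0.04 (adjusted p = 0.85). All 7 fibroblast markers fell, where 35.4% of all genes tested did, among them Dcn by 2.96, Postn by 2.82 and Col1a2 by 2.47, and their summed signal was 1072 to 1540 in WT and 251 to 281 in Dnmt1-/-. Of 8 markers of 2-cell-like cells, 7 fell, against the same share, with Zscan4c, Zscan4d and Zscan4f at −1.35, −1.33 and −1.38, and a summed signal of 409 to 436 in WT and 168 to 194 in Dnmt1-/-. These markers moved with the genotype beside every gene below, and their part in the results was not tested. In bulk RNA, fewer expressing cells and less RNA per cell cannot be told apart.

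The 3 genes for meiotic cohesin subunits all rose. Stag3, the meiotic STAG subunit (chr5:138280240-138312393, plus strand, 33 exons in its longest transcript), had a signal of 26.9, 30.0 and 30.4 in WT and 90.7, 109 and 99.7 in Dnmt1-/-. The groups did not overlap, and the Dnmt1-/- values rest on 2605 to 3315 reads. The log2 fold change was 1.76 ± 0.06 (SE, n = 3 and 3, adjusted p = 1.9e-17 in limma), and the means were 29.1 ± 1.93 and 99.8 ± 9.14 (SD).

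Smc1b, the meiotic counterpart of SMC1A (chr15:85064689-85131964, minus strand, 25 exons), had a signal of 8.58, 7.22 and 8.91 in WT. In the Dnmt1-/- libraries it had 36.6, 37.2 and 38.0, all above the WT libraries. It rose by 2.12 ± 0.08 on the log2 scale (SE, adjusted p = 2.2e-17 in limma).

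Rec8, the meiotic kleisin that closes the cohesin ring (chr14:55618037-55625395, plus strand, 20 exons), had a signal of 9.99, 11.4 and 12.5 in WT and 20.1, 19.7 and 20.4 in Dnmt1-/-. The groups did not overlap, and the rise was under 2-fold, at 0.81 ± 0.08 on the log2 scale (SE, adjusted p = 4.0e-09 in limma).

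The mitotic counterparts of these subunits were measured in the same libraries. Smc1a fell by 0.41 and Stag2 by 0.52 on the log2 scale, while Stag1 rose by 0.27 and Rad21 by 0.58. Per kilobase of exon, the level of Smc1b was 5.75% ± 0.563 of that of Smc1a in WT and 34.6% ± 0.419 in Dnmt1-/- (SD, n = 3). Stag3 stood at 24.8% ± 3.31 of the summed level of Stag1 and Stag2 in WT and at 94.1% ± 10.8 in Dnmt1-/-. Rec8 stood at 4.78% ± 0.472 of Rad21 in WT and at 5.67% ± 0.0402 in Dnmt1-/-. Of these 3 ratios, that of Stag3 was the only one to pass 100% in a library (105% in Dnmt1-/- replicate 2). Over the mitotic cohesin list, 5 of 9 genes rose and 2 fell, none by 2-fold, with a median of 0.27. Over all genes tested 35.8% rose and 35.4% fell, while 3.67% rose and 9.41% fell by at least 2-fold. Rad21l, a further meiotic kleisin, was at or below 0.383 in every library and was not tested.

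Hormad1, which loads on unsynapsed axes (chr3:95559677-95587671, plus strand, 16 exons), had a signal of 17.7, 14.9 and 17.9 in WT and 23.2, 23.0 and 19.1 in Dnmt1-/-. Dnmt1-/- replicate 3 was close to the WT libraries without overlapping them. The rise was the smallest of the 7, at 0.36 ± 0.08 (SE, adjusted p = 4.9e-04 in limma), and ranged from 0.27 to 0.49 over the alternative settings. Of 3 further axis genes tested, 2 rose and none fell, with a median of 0.82, where 35.8% of all genes tested rose and 35.4% fell. Hormad2, its paralog, rose by 1.30 ± 0.07, from 10.2 ± 0.252 to 25.8 ± 1.52 (SD), and Sycp2, the axis partner of SYCP3, by 0.82 ± 0.13. Sycp2l, a paralog of Sycp2, had a log2 difference of −0.23 (adjusted p = 0.12), and passed as lower with scaling to the total of recovered reads (−0.31, adjusted p = 0.043 in limma).

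Of the genes of the synaptonemal complex itself, the filament gene and the central element gene moved in opposite directions. Sycp1 (chr3:102818499-102936100, minus strand, 33 exons) had a signal of 6.42, 5.87 and 6.11 in WT and 40.7, 40.2 and 38.5 in Dnmt1-/-. This was the largest rise of the set, 6.49-fold between the means and 2.60 ± 0.07 on the log2 scale (SE, adjusted p = 1.4e-19 in limma). A processed pseudogene, Sycp1-ps1 on chromosome 7, could share some of its reads.

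Syce1 (chr7:140777229-140787852, minus strand, 13 exons) had a signal of 39.3, 36.6 and 37.7 in WT. The Dnmt1-/- libraries, at 28.1, 26.9 and 28.2, all lay below them. The fall was 0.44 ± 0.06 on the log2 scale (SE, adjusted p = 4.4e-07 in limma). All 3 of its central element partners that were tested rose, as 35.8% of all genes tested did, Syce2 by 0.35 ± 0.08, Six6os1 (listed as 4930447C04Rik) by 0.64 ± 0.08 and Syce3 by 1.33 ± 0.15, with a median of 0.64. Tex12 was not analysed here in the replicates.

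The order of the levels, as signal per kilobase of exon, also differed between the groups. In WT cells Syce1 stood first at 25.9 ± 0.939 (SD, n = 3), followed by Hormad1 at 9.73, Stag3 at 5.07, Rec8 at 3.85, Smc1b at 2.04, Sycp1 at 1.72, Dmc1 at 1.19 and Tex101 at 0.672. Among these neighbours only Smc1b and Sycp1 overlapped between libraries. In Dnmt1-/- cells the order was Syce1 at 19.0 ± 0.490, Stag3 at 17.4 ± 1.59, Hormad1 at 12.6 ± 1.34, Sycp1 at 11.2 ± 0.328, Smc1b at 9.21, Rec8 at 6.84, Dmc1 at 4.00 and Tex101 at 3.45. Syce1 overlapped with Stag3 there, and Hormad1 with Sycp1, while the other neighbours were apart.

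**Figure D2:**
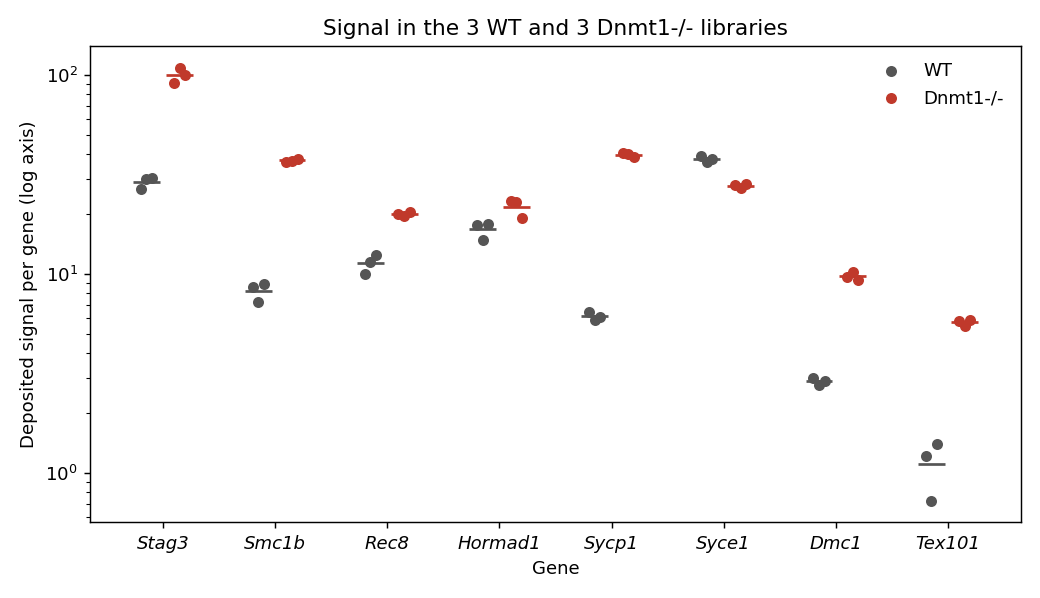
Each point is the deposited signal of a gene in 1 library on a log axis, for the 3 WT (grey) and 3 Dnmt1-/- (red) libraries, and each bar is the group mean. The groups do not overlap in any of the 8 tested genes, with Dnmt1-/- higher in 7 and lower in Syce1.

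Of the recombination enzymes, Dmc1 rose and Spo11 was barely detected. Dmc1 (chr15:79561497-79605109, minus strand, 14 exons) had a signal of 3.01, 2.78 and 2.91 in WT and 9.61, 10.3 and 9.29 in Dnmt1-/-, from 81 to 107 and 252 to 313 reads. Its rise was 1.59 ± 0.10 on the log2 scale (SE, adjusted p = 1.0e-12 in limma). Of 7 recombination genes shared with mitotic cells, 6 rose and 1 fell, with a median of 0.56, where 35.8% of all genes tested rose and 35.4% fell.

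Spo11 (chr2:172977700-172993576, plus strand, 8 exons) had 2, 0 and 0 reads in the WT libraries and 3, 1 and 1 in the Dnmt1-/- libraries, and did not pass the filter on low genes. It was at 0 in all 4 single libraries as well. A count of 0 allows up to 3 reads, so a change of Spo11 within these few reads was not detectable at this depth. Its partner in the break-forming enzyme, Top6bl (listed as Gm960), had a signal of 1.59 ± 0.365 in WT and 1.35 ± 0.184 in Dnmt1-/- (SD), a log2 difference of −0.16 (adjusted p = 0.33).

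Tex101 (chr7:24668007-24676675, minus strand, 7 exons) had a signal of 1.21, 0.727 and 1.40 in WT, from 28 to 39 reads. In Dnmt1-/- it had 5.81, 5.49 and 5.86, from 159 to 167 reads. The rise was 1.97 ± 0.14 on the log2 scale (SE, adjusted p = 8.6e-12 in limma), and it ranged from 1.32 with a pseudocount of 2 to 2.39 in other settings.

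Other meiotic genes moved in both directions. Of 39 other meiotic genes 37 were tested, 22 rose, 6 fell and 9 rose at least 2-fold, with a median log2 fold change of 0.47. Among all genes tested 35.8% rose, 35.4% fell and 3.67% rose at least 2-fold. Among 24 recombination genes 13 rose, 5 fell and 4 rose at least 2-fold, with a median of 0.32. The crossover gene Shoc1 (listed as AI481877) rose by 2.95 ± 0.10, from a mean signal of 3.01 to 26.6, Tex15 by 1.96 ± 0.08 and the X-linked crossover gene Tex11 by 1.80 ± 0.11.

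Among 7 genes of meiotic entry, 4 rose, 1 fell and 2 did not pass the test, with the same shares of 35.8% and 35.4% over all genes. Dazl, a germ cell RNA-binding protein, had a signal of 24.5, 22.0 and 23.9 in WT and 321, 317 and 331 in Dnmt1-/-, a rise of 3.75 ± 0.05 on the log2 scale (adjusted p = 2.2e-25 in limma). Meioc rose by 1.24, Mael of the piRNA pathway by 1.15 and Meiosin (listed as Gm4969) by 0.72. Stra8, the retinoic acid-induced partner of MEIOSIN, was high in both groups, at 94.7 ± 3.98 and 90.0 ± 2.27 (SD), and its log2 difference of −0.07 did not pass the test (adjusted p = 0.19). It passed as lower with the GC and length trend removed (−0.14, adjusted p = 0.019) and with scaling to the total of recovered reads (−0.17, adjusted p = 0.0042 in limma).

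Germ cell markers outside meiosis were mixed. Of 7 tested, 4 rose and 2 fell, with Dppa3, a maternal and germ cell factor, at 3.10, Piwil2 of the piRNA pathway at 2.00 and Prdm1, a regulator of germ cell specification, at −0.84. Among 11 genes for repressors of germline genes 8 rose and 1 fell. Over all genes tested, 35.8% rose and 35.4% fell. The de novo methyltransferase gene Dnmt3b had the largest change, 1.11 ± 0.05, ahead of Setdb1 at 0.41 and Uhrf1, the cofactor of DNMT1, at 0.37.

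**Figure D3:**
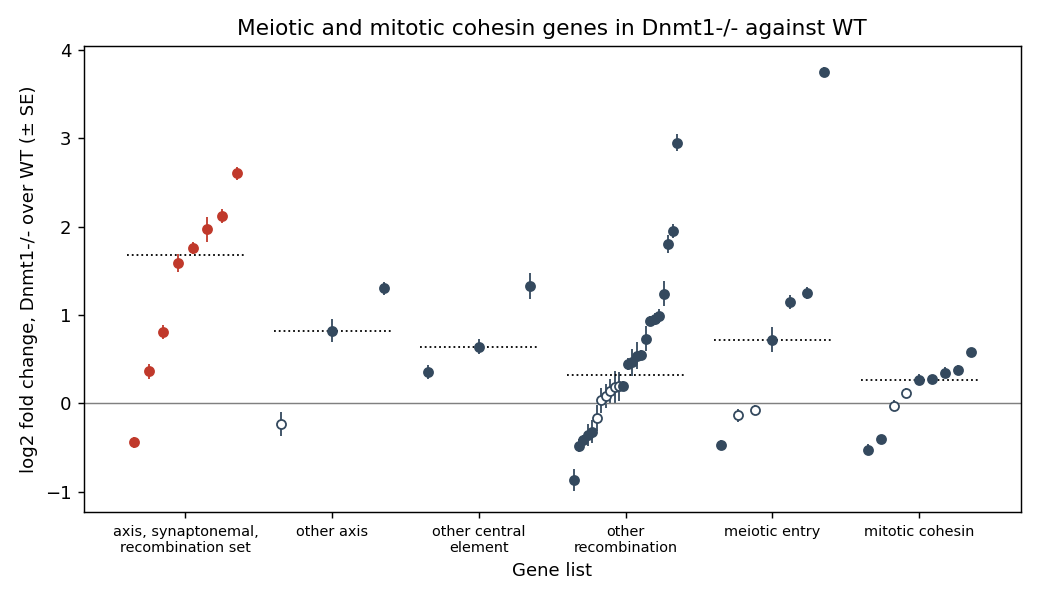
Each point is the log2 fold change of 1 tested gene, Dnmt1-/- over WT, with its standard error, grouped by list; open points did not pass the test and dotted lines are list medians. The set of 8 (red) has a median of 1.67, the other meiotic lists have medians of 0.82, 0.64, 0.32 and 0.72, and mitotic cohesin has 0.27.

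The 4 single libraries gave a further look at the same genes, without replicates and so without a test. They held 18693531 to 25097983 counts on genes, were scaled separately from the replicate tables, and are given as cpm, the counts per 1e6 counts on genes. Ratios carry exact 95% intervals that cover counting error only, and log2 ratios are on the log2(cpm + 0.5) scale. Over the WT and Dnmt1-/- libraries, 9 of the 10 genes had at least 100 counts summed. Of these, 5 (Smc1b, Sycp1, Hormad1, Dmc1 and Stag3) were at least 2-fold higher in Dnmt1-/-, beside 10.5% of the 12593 genes compared, and none was 2-fold lower, beside 6.89%. The single WT library differed from the other 3 in mitotic cohesin genes. Of 9 such genes, all 9 were lowest in it and 7 were at least 2-fold higher in Dnmt1-/- against it. Of the 9 genes of the set with counts, 4 (Sycp1, Stag3, Smc1b and Dmc1) were lowest in it. The share of all genes lowest in the single WT library was not computed. Nipbl, a cohesin loader named after its values were seen, had 10.4 cpm in WT against 92.5, 106 and 153 in Dnmt1-/-, D242A and dCas9-OGA. Set beside the dCas9-OGA libraries instead of WT, the 5 genes were still highest in the Dnmt1-/- library. Cell-state markers differed between the WT and Dnmt1-/- libraries. The summed level of 8 markers of 2-cell-like cells was 27.6 cpm in WT and 1.16 in Dnmt1-/-, and that of 7 fibroblast markers was 49.0 and 30.7 cpm. The summed level of 8 ES cell markers was 4172 and 3296 cpm, with none 2-fold apart. Of 6 germ cell markers compared, 2 were at least 2-fold higher in Dnmt1-/-, Dppa3 (log2 ratio 2.84) and Prdm1 (2.03), and 1 was lower, Tfap2c (−1.21). The part of these markers in the ratios below was not tested.

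Smc1b had 19 counts in WT (0.767 cpm) and 628 in Dnmt1-/- (33.0 cpm), a ratio of 43.1 with an interval of 27.4 to 72.1. Its WT level here was below the replicate signal of 7.22 to 8.91, while its Dnmt1-/- level was near the 36.6 to 38.0 of the replicates. Sycp1 had 1.61 and 7.84 cpm, a ratio of 4.86 (3.41 to 7.07). Its Dnmt1-/- level was far below the 38.5 to 40.7 of the replicates, but the ratio of the replicate means, 6.49, lies within this interval.

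Hormad1 had 6.25 and 22.9 cpm, a ratio of 3.66 (3.04 to 4.42). Dmc1 had 3.15 and 10.7 cpm, a ratio of 3.39 (2.60 to 4.46). Stag3, with the most counts, had 38.6 and 88.0 cpm, a ratio of 2.28 (2.10 to 2.47). Between the replicate means the ratios were 1.29 for Hormad1, 3.35 for Dmc1 and 3.43 for Stag3, and of these that of Dmc1 lay within the counting interval of the single libraries.

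The mitotic counterparts were lower in the single WT library than in the other 3. Smc1a had 28.0 cpm there, 97.7 in Dnmt1-/-, 121 with D242A and 154 with dCas9-OGA, beside a signal of 200 to 210 in the WT replicates. Between Dnmt1-/- and WT it had a ratio of 3.49 (3.20 to 3.81) and Stag2 of 3.83 (3.42 to 4.30), where both had fallen in the replicates, and Stag1 had a ratio of 2.07 (1.91 to 2.24) and Rad21 of 1.13 (1.10 to 1.16). Per kilobase of exon, Smc1b stood at 3.90% of Smc1a in the single WT library and 48.2% in the single Dnmt1-/- library. With D242A and dCas9-OGA it stood at 12.3% and 6.52%. Stag3 stood at 124% of Stag1 and Stag2 in WT and at 105% in Dnmt1-/-, so its ratio was not higher in Dnmt1-/- than in WT, as it was in the replicates. With D242A and dCas9-OGA the Stag3 ratio was 37.8% and 52.0%, both below that in Dnmt1-/-. Rec8 stood at 6.68% of Rad21 in WT, 5.76% in Dnmt1-/-, 12.7% with D242A and 4.49% with dCas9-OGA.

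The remaining genes did not show the direction of the replicates. Syce1 had 9.88 and 11.4 cpm, a ratio of 1.15 (0.958 to 1.39), where it had fallen in the replicates. Rec8 had 21.1 and 20.5 cpm, a ratio of 0.974 (0.852 to 1.11). Tex101 had 5.41 and 4.58 cpm, a ratio of 0.847 (0.639 to 1.12), and its WT level was several times the replicate signal of 0.727 to 1.40. The intervals of all 3 include equal levels.

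Sycp3 (chr10:88459569-88473236, plus strand, 8 exons), the axis protein that forms the lateral elements, could be followed only here. It had 123 counts in WT and 54 in Dnmt1-/-, or 4.96 and 2.84 cpm, a ratio of 0.572 (0.408 to 0.794). It was the only gene of the set whose interval lay wholly below equal levels in Dnmt1-/- against WT. Of its exon bases, 660 (52.2%) are shared with Chpt1 on the opposite strand, and the sources differ on whether the libraries kept strand, so its counts may hold reads of Chpt1. The other 9 genes share no exon bases with another gene.

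The ratio of the single Dnmt1-/- and WT libraries moved with base composition over all genes, with a median log2 ratio of 0.38 among genes of low GC content (the lowest of 3 equal bins), −0.12 in the middle bin and −0.32 in the highest. Of the genes with a ratio, 5 (Sycp1, Sycp3, Hormad1, Smc1b and Dmc1) lie in the lowest bin, at 34.3% to 42.1% GC, and Rec8 at 56.7% lies in the highest. The mitotic counterparts Smc1a, Stag1, Stag2 and Rad21 also lie in the lowest bin, at 38.1% to 46.9% GC, and Stag3 at 49.1% lies in the middle one. With the trend of GC content and transcript length removed, a setting chosen after seeing the data, Smc1b stood at 4.02, Stag3 at 1.20 and Dmc1 at 1.15 on the log2 scale. Sycp1 then stood at 0.71, Hormad1 at 0.67 and Sycp3 at −2.02, so that 3 genes were at least 2-fold higher and 1 was lower. In the replicates the same setting left all 8 genes with the same direction and call, from −0.50 for Syce1 to 2.78 for Sycp1.

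**Figure D4:**
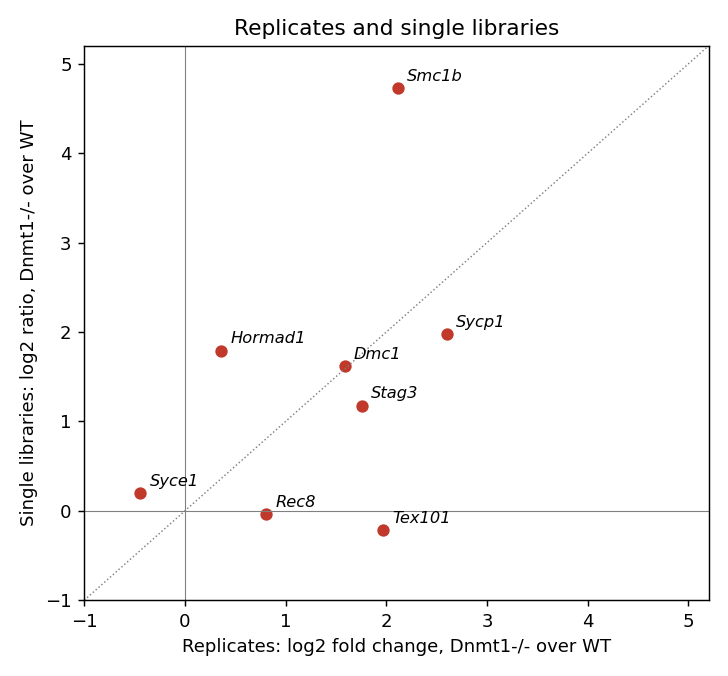
Each point is 1 of the 8 genes, with its replicate log2 fold change (Dnmt1-/- over WT) on the x axis and the log2 ratio of the single libraries on the y axis; the dotted line marks equal values. Sycp1, Stag3, Smc1b, Dmc1 and Hormad1 are above 0 on both axes, and Syce1, Rec8 and Tex101 have opposite signs.

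Active and inactive dCas9-OGA were then compared, both in cells with DNMT1. Over this pair, 8 of the 10 genes had at least 100 counts summed. None was at least 2-fold higher with dCas9-OGA, beside 4.88% of the 12722 genes compared, and 1, Rec8, was 2-fold lower, beside 7.22%. Rec8 had 1082 counts with dCas9-OGA-D242A and 493 with dCas9-OGA, or 43.5 and 19.9 cpm, a ratio of 0.456 (0.409 to 0.508). The WT library had 21.1 cpm and the Dnmt1-/- library 20.5 cpm. With 1 library per condition, which of the libraries moved was not tested. Of 7 fibroblast markers, 4 had at least 100 counts summed over this pair, with log2 ratios of −1.83 for Col1a2, −1.15 for Col1a1, 0.31 for Col3a1 and −0.028 for Thy1. Other markers parted these libraries as well. Dppa3 had 729 counts with D242A and 32 with dCas9-OGA, a log2 ratio of −4.06, and Piwil2 stood at 1.09. Among the 11 repressors of germline genes, 2 were at least 2-fold lower with dCas9-OGA, Dnmt3a (−2.01) and Dnmt3b (−1.19). Of 8 ES cell markers 1 was at least 2-fold higher, Nanog (1.06), and the lowest ratio was −0.24. The part of these markers in the difference of Rec8 and in the ratios below was not tested.

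Stag3 and Dmc1 were higher with dCas9-OGA by less than 2-fold. Stag3 had 42.0 cpm with D242A and 70.3 with dCas9-OGA, a ratio of 1.67 (1.55 to 1.81), and Dmc1 had 4.59 and 7.21 cpm, a ratio of 1.57 (1.24 to 2.01). Both libraries of Stag3 lay at or above the 38.6 cpm of WT and below the 88.0 cpm of Dnmt1-/-.

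Hormad1 and Smc1b were lower with dCas9-OGA by less than 2-fold. Hormad1 had 8.33 cpm with D242A and 4.67 with dCas9-OGA, a ratio of 0.561 (0.443 to 0.708). Smc1b had 10.4 and 7.05 cpm, a ratio of 0.677 (0.555 to 0.823), and both were above the 0.767 cpm of the WT library. The 2 cohesin genes Smc1b and Stag3 therefore stood on opposite sides of equal levels.

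The intervals of the other genes included equal levels. Sycp1 had 117 counts in each library (ratio 1.00, 0.768 to 1.31) and Syce1 had 210 in each (ratio 1.00, 0.823 to 1.22). Sycp3 had 232 and 245 counts, a ratio of 1.06 (0.880 to 1.27). Tex101 had 39 and 32 counts, a ratio of 0.822 (0.498 to 1.35). For Sycp1, Syce1 and Sycp3 a 2-fold difference between these libraries lies outside the counting interval.

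**Figure D5:**
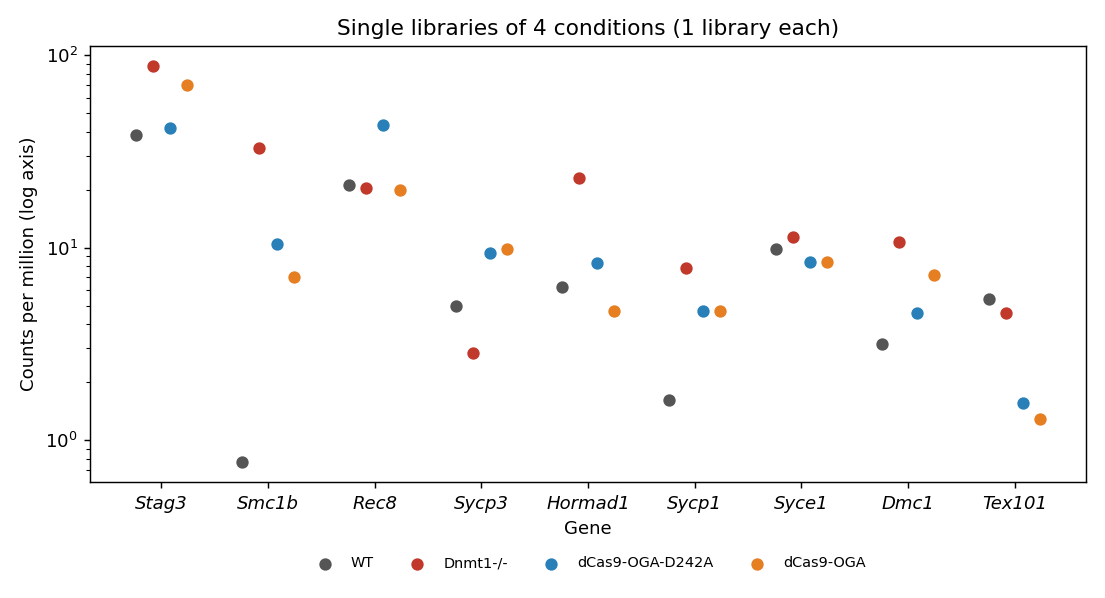
Each point is the cpm of a gene in 1 single library on a log axis, for WT (grey), Dnmt1-/- (red), dCas9-OGA-D242A (blue) and dCas9-OGA (orange). Smc1b spans 0.767 to 33.0 cpm, Rec8 is highest with dCas9-OGA-D242A, Sycp1 and Syce1 are alike with both forms of dCas9-OGA, and Spo11, at 0 in all 4, is not drawn.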

How the data were processed

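PolyA RNA of mouse ES cells had been sequenced in 8 labelled samples, and 10 meiotic genes were analysed here. A joint table adds 2 columns, WT and Dnmt1-/-, that no label ties to a sample. Per the methods of the study and the submitters' processing notes, reads were mapped to mm10 with HISAT2 2.1.0 or TopHat2 2.0.11 and counted on Ensembl genes with featureCounts 1.5.0. The labels name a TruSeq RNA v2 kit and the methods a stranded one, and the strand setting of the counting is not given in the sources used here.

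For the 6 replicates the values deposited by the authors are a signal, the reads of a gene scaled by 1 factor per library. File headers were shifted against the columns, and values were read by column position. All values (100%) were whole multiples of 1 read within 0.1 read. For the single libraries the authors deposited whole counts, and the WT and Dnmt1-/- columns were treated as separate libraries, which is an assumption. The ChIP-seq samples and the repeat counts were not analysed here.

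Genes that passed edgeR's filterByExpr on the recovered reads were tested on log2(signal + 0.5) with limma 3.58.1 (trend), Benjamini-Hochberg adjustment over all genes and a threshold of 0.05. The recovered reads were also tested with edgeR 4.0.16 (quasi-likelihood) and DESeq2 1.42.0, and further alternatives were other pseudocounts, scalings, filters and left-out libraries. On the recovered reads edgeR called 12252 genes and limma on the signal 12324. The GC content and length correction was chosen after seeing the data. On simulated data for 17297 genes with 200 changed (Dnmt1-/- against WT), 177 (88.5%) were recovered with 8 false calls. The simulation changed far fewer genes than the 12324 called here, so it does not give the error rate of these calls.

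Counts were scaled with TMM factors (0.988 to 1.02) and compared, where at least 100 were summed, as log2(cpm + 0.5), with exact binomial 95% intervals of count ratios. Gene positions and exon lengths came from GENCODE vM21 on GRCm38 and promoters from RefSeq. Replicates correlated at 0.997 to 0.998 and differed by more than sampling noise (chi-square per degree of freedom 2.76 to 9.77). Named genes were all 10 genes, the 3 tested genes with the largest absolute change in every other list, and the role partners of the 10 genes. A further gene of the list of recombination genes shared with mitotic cells is not reported here. The genes and lists were chosen with earlier results of these data known. Computations ran in R 4.3.3 and Python 3.11.15 with matplotlib 3.10.9, SciPy 1.17.1, NumPy 2.4.6 and pandas 2.3.3.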

Additional observations from a re-analysis of the deposited data

Results flagged for a closer look

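Syce1, Rec8 and Tex101 differed in sign between the replicates and the single libraries of the same 2 genotypes. The single log2 ratio of Dnmt1-/- to WT was 0.20 for Syce1, −0.037 for Rec8 and −0.22 for Tex101, where the replicate log2 fold changes were −0.44, 0.81 and 1.97. With the trend of GC content and length removed, the single ratios were 0.27, 0.34 and −0.066. The mitotic cohesin genes Smc1a and Stag2 also differed in sign, at 1.79 and 1.90 in the single libraries and −0.41 and −0.52 in the replicates. So did the germ cell markers Prdm1 and Tfap2c, at 2.03 and −1.21 in the single libraries and −0.84 and 0.47 in the replicates. The difference between the replicates and the single libraries was not tested, since the tables were normalized separately and each genotype has 1 single library.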

How the results depend on the processing

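All 8 tested genes kept direction and call in all 16 alternatives, including edgeR, DESeq2 and every left-out library. The replicate numbers did not pair the samples. After the group mean of each gene was subtracted, libraries of the same number correlated at 0.074, −0.016 and 0.065. A replicate block gave 12556 calls against 12324. Scaling by the total of recovered reads moved the median gene to −0.078 and gave 5067 higher and 7125 lower genes against 6196 and 6128. In that scaling 1 further axis gene, 3 meiotic entry genes and 2 germline repressors were lower, and Amh was at −0.010. Dppa4 lost its call there, while Sycp2l and Stra8 passed as lower, Stra8 also with the GC and length trend removed. With a library left out Amh ranged from −0.11 (without Dnmt1-/- replicate 2) to 0.13 (without Dnmt1-/- replicate 3), and was at −0.073 without WT replicate 1. Central element genes at least 2-fold higher numbered 0 with a pseudocount of 2. Lower recombination genes numbered 3 without the filter, and 3 to 5 with a library left out (3 without WT replicate 1, Dnmt1-/- replicate 2 or replicate 3). Lower meiotic entry genes numbered 2 with the GC and length trend removed and 1 to 2 with a library left out (2 without WT replicate 2). Lower germline repressors numbered 0 to 1 with a library left out (0 without WT replicate 2 or Dnmt1-/- replicate 2). In the single libraries, 4 of the genes had at least 500 counts summed and 3 of those were at least 2-fold higher in Dnmt1-/-, with fewer genes compared as the reason. There were 3 higher and 1 lower with the GC and length trend removed. The cause of the other shifts was not tested. Depth limits Spo11, and 1 library per condition leaves the single comparisons without a replicate check.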
